A study of Mus musculus with 4 samples.

Results

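Nitric oxide, endothelin-1 and prostacyclin are the classical messengers with which the vessel lining sets the tone of the muscle around it, and 9 genes of their synthesis and its control were followed in ear skin endothelium: *Nos3*, *Nostrin*, *Ddah1*, *Ddah2*, *Gch1*, *Edn1*, *Ece1*, *Ptgis* and *Ptgs1*. These genes were chosen as a list by name, and are 9 of the 46517 genes in the count tables. Dermal blood vascular endothelial cells (BECs) came from ears of wild-type female C57Bl/6 mice (C57BL/6 J in the methods of the study), aged 12 to 26 weeks according to the labels, where the methods give a younger range, and cells positive for CD31 and negative for CD45 and Lyve1 were sorted singly into 384-well plates for Smart-seq2, a full-length single-cell RNA-seq method. All samples were of this 1 untreated condition, in 2 replicates of 2 plates each (A and B), and the labels describe pools of 6 mice. Whether each replicate was a pool of its own was not settled, and plates of 1 replicate were counted as 1 sample.

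Of 1536 wells, 701 passed the filters for BECs, and 249 of these fell into a cluster that carried the markers of a vessel class. There were 41 artery-like wells (20 in replicate 1 and 21 in replicate 2), 112 capillary-like wells (94 and 18) and 96 vein-like wells (45 and 51), while the other 452 wells were not named as any of the 3 classes. The 9 genes and the other genes of their pathways had no part in the clustering. The artery-like cluster was higher than the other wells in 12 of 12 artery markers, the vein-like cluster in 11 of 12 vein markers and the capillary-like cluster in 10 of 14 capillary markers. Of other lists, the capillary-like cluster was also higher in the artery markers *Unc5b* and *Cxcl12*, the artery-like cluster in the capillary markers *Aqp7* and *Btnl9*, and the vein-like cluster in the capillary marker *Meox1*, the mural marker *Tagln* and the keratinocyte marker *Krt10*. The 4 plates held 31864976 to 74739095 reads in all, and median depth per well ranged from 119363 to 188105 reads across classes and replicates. Levels are read counts scaled to the total of each well and given as CPM, averaged over the wells of a class. As a background, the same values were taken from 8 and 38 mural wells, which held at least 300 CPM of *Pdgfrb* or *Kcnj8* and under 100 CPM of *Pecam1*. Summed mural markers were higher in replicate 1 than in replicate 2 in each class, at 1336 to 1647 CPM against 180 to 458 CPM, and whether this has a part in the levels below was not tested.

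In endothelium, nitric oxide is made from arginine by the synthase that *Nos3* encodes, with tetrahydrobiopterin as cofactor, and it relaxes the neighbouring smooth muscle. Endothelin-1 is made as a long precursor from *Edn1* and cut to its active form by a membrane protease from *Ece1*, and it constricts vessels through receptors on smooth muscle. Prostacyclin relaxes vessels and restrains platelets, and is made from arachidonic acid by a cyclooxygenase, such as that of *Ptgs1*, followed by prostacyclin synthase, the product of *Ptgis*.

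RefSeq start sites (GRCm38.p6) gave promoter windows for 7 of the 9 genes, all but *Nos3* and *Ptgis*. The windows of *Edn1* and *Ptgs1* are shown, since these were the genes whose class of highest mean was the same in 10 of 10 alternative settings. Each window runs over the 250 bases before the start site, on the plus strand, at chr13:42301226-42301475 for *Edn1* and chr2:36230176-36230425 for *Ptgs1*, and capitals mark the motif found.
Edn1: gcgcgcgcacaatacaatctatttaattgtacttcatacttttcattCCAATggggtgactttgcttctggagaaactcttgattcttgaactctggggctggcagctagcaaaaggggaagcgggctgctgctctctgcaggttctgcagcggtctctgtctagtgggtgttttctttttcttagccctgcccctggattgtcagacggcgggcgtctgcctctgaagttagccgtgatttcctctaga
Ptgs1: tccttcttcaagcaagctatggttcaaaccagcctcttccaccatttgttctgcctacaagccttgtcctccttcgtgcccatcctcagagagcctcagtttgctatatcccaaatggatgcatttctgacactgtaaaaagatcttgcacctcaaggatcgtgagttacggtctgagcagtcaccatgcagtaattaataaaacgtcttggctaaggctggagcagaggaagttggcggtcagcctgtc
Searched on both strands were the TATA box, spelled TATAAA and present in 12.4% of 32851 promoter windows of this length, and the GATA motif, spelled GATAA and present in 22.6%. Also searched were the AP-1 motif, TGANTCA, present in 6.75% of them, and the hypoxia response core, ACGTG, present in 16.6%. The CCAAT box was present in 33.8% of windows. The *Edn1* window held the CCAAT box alone, at bases -203 to -199 from the start, and that of *Ptgs1* held none of the 5 motifs. Of the other members, *Gch1* carried the TATA box spelling on the strand opposite the gene, at bases -188 to -183, and a CCAAT box at -70 to -66. *Ece1*, with 4 annotated start sites, carried CCAAT boxes and the hypoxia response core.

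Per kilobase of exon, and averaged over the 3 classes, *Edn1* (227 CPM per kb ± 99.4, SD, n = 2 replicates) and *Ece1* (158 ± 9.68) had the highest levels of the 9 genes. For *Edn1* this average was led by artery-like wells, at 559 CPM per kb, beside 53.2 in capillary-like and 70.4 in vein-like wells. In capillary-like wells it lay below *Ece1* (139) and *Nos3* (71.1), and in vein-like wells below *Ece1* (186) and *Ddah2* (78.0 CPM per kb). *Ddah2* (74.1 ± 56.5), *Nos3* (63.3 ± 25.6) and *Ptgs1* (28.0 ± 11.3) followed, then *Gch1* (10.9 ± 0.821), *Ddah1* (8.04 ± 1.16) and *Nostrin* (6.32 ± 2.22). *Ptgis* was close to the limit of detection at 0.576 ± 0.693 CPM per kb. The intervals of 1 SD overlapped between *Edn1* and each of *Ece1* and *Ddah2*, among *Ddah2*, *Nos3* and *Ptgs1*, and between *Ddah1* and *Nostrin*, so the order within these was not resolved by 2 replicates.

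To ask which of these genes differed between vessel classes, counts were summed per replicate and class and tested with the quasi-likelihood test of edgeR, with Benjamini-Hochberg adjustment over the 13688 genes tested and the replicate as a block. All 9 genes passed the filter on low counts and 0 of 9 were called in any comparison at an adjusted p of 0.05. Few genes of any kind were called: 0.0146% for any difference between classes (2 genes, *Aqp1* and *Selp*), 0.00731% for artery-like, 0.0% for capillary-like and 0.0292% for vein-like BECs, each set against the average of the other classes. At an unadjusted p under 0.05, *Edn1* alone of the 9 passed in the test for any difference, where 4.18% of all genes did. The fit had 2 residual degrees of freedom, and in counts simulated with the estimated spread it recovered 2% of 197 genes changed 4-fold among 12932 in artery-like BECs, so a miss here does not show that levels were alike. By DESeq2, which recovered 14% of them in the same simulation with 86.5% of its calls false, *Edn1* was called in artery-like and *Ddah1* in capillary-like BECs, beside 5.03% and 1.88% of all genes. The class with the highest mean was the same in both replicates for 4 of the 9 (*Nos3*, *Edn1*, *Ece1* and *Ptgs1*), against 39.5% of all genes tested. The median log2 fold change of the 9 genes was 0.226 for the artery-like, -0.943 for the capillary-like and 0.348 for the vein-like class, where that of all genes was -0.198, -0.014 and 0.306.

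**Figure D1:**
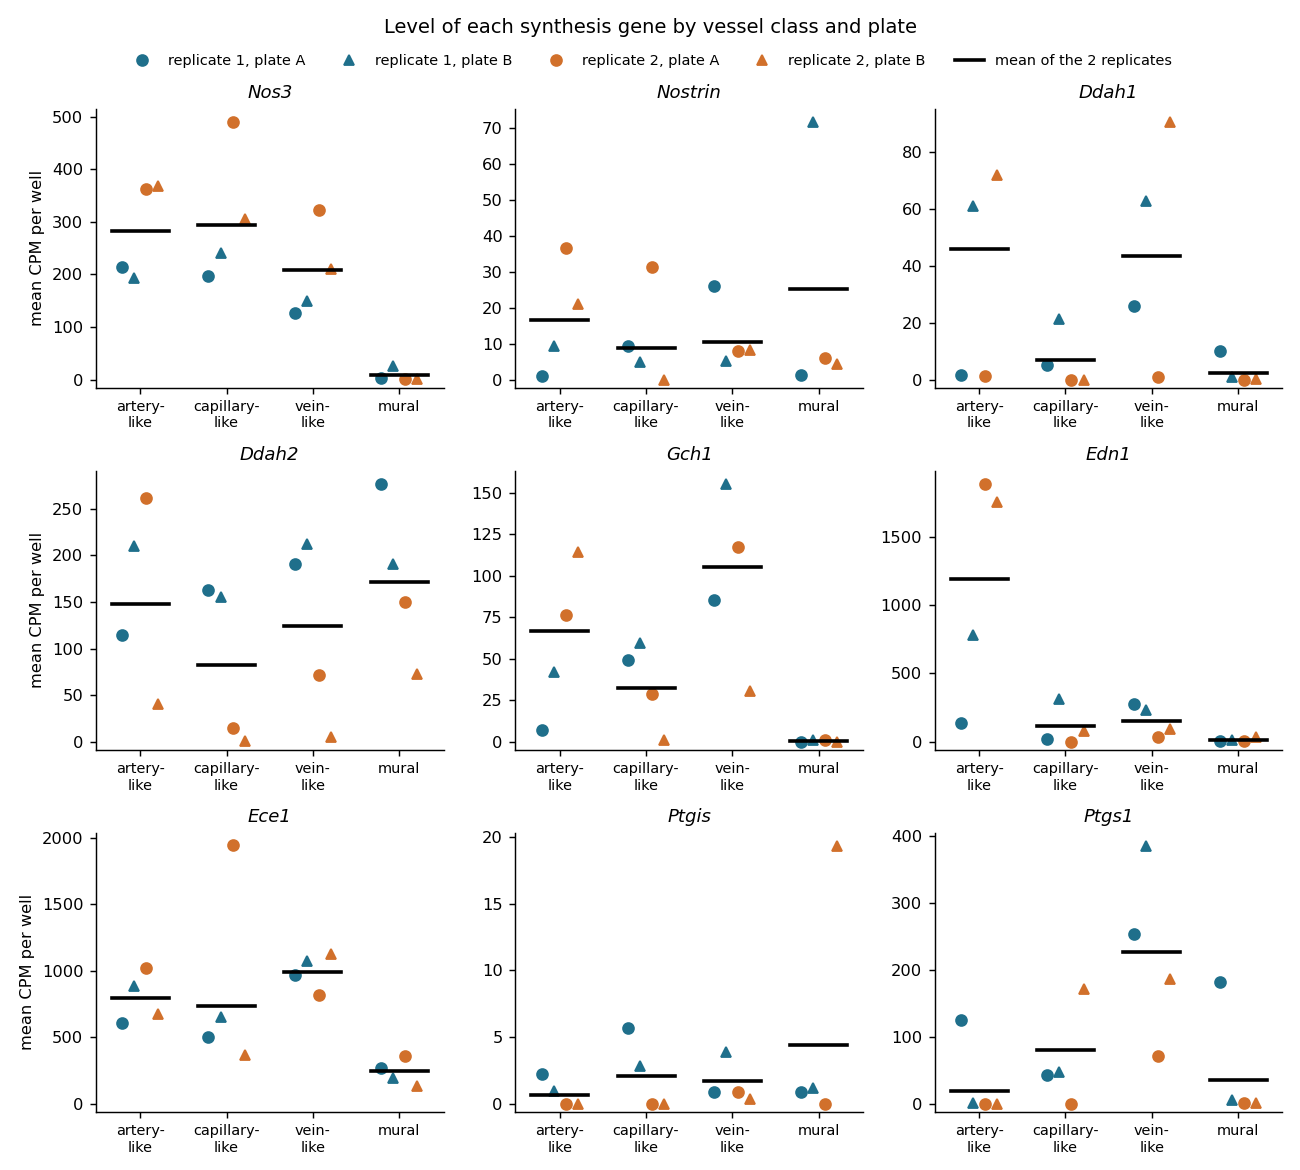
Mean CPM per well (linear y axis, a scale for each panel) of the 9 genes in artery-like, capillary-like, vein-like and mural wells, with 1 point per plate and a bar at the mean of the 2 replicates. *Edn1* is highest in artery-like wells on 3 of 4 plates and *Ptgs1* in vein-like wells, while *Nos3* and *Ece1* are spread over all 3 classes.

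*Edn1*, the endothelin-1 precursor (chromosome 13, 42301476 to 42307990, plus strand, mm10), was highest in artery-like BECs in both replicates. Its mean level in artery-like wells was 133 CPM (plate 1A), 782 CPM (1B), 1892 CPM (2A) and 1757 CPM (2B). In capillary-like wells the 4 plates, in the same order, gave 17.0, 315, 0 and 78.7 CPM, and in vein-like wells 272, 229, 30.2 and 91.8 CPM. The artery-like level thus lay above both other classes on 3 of 4 plates, and on plate 1A, with 6 artery-like wells, it was below the vein-like level. By replicate, artery-like wells had 588 and 1802 CPM (1195 ± 859, SD, n = 2), capillary-like wells 175 and 52.5 CPM (114 ± 86.8) and vein-like wells 246 and 55.5 CPM (151 ± 134). The excess of artery-like over vein-like wells was 2.39-fold in replicate 1 and 32.4-fold in replicate 2. On the summed counts the log2 fold change of artery-like BECs against the others was 3.32 (SE 0.776), with an unadjusted p of 0.004 and an edgeR adjusted p of 0.745. From the class sums of replicate 2 alone this value was 4.66 and from those of replicate 1 alone 1.49, with no test. When wells expressing 10 CPM or more of a non-BEC gene were removed, which left 1 artery-like well in replicate 1, it was -0.21. With a limit of 300 CPM it was 0.78, with all 3 BEC genes required 1.10 and with classes from marker scores 2.07. The summed level of 56 dissociation-induced genes in artery-like wells also differed between replicates, at 25041 and 36868 CPM. Summed capillary markers in these wells were at 11601 and 2471 CPM, and summed artery markers at 9465 and 8100 CPM. Capillary-like wells had the capillary markers at 18835 and 9202 CPM. Whether any of these has a part in the level of *Edn1* was not tested.

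The share of wells with *Edn1* had its highest value in artery-like BECs in both replicates. At least 100 CPM was present in 9 of 20 and 12 of 21 artery-like wells (45.0% and 57.1%, exact 95% intervals 23.1 to 68.5% and 34.0 to 78.2%), in 17 of 94 and 2 of 18 capillary-like wells (18.1% and 11.1%) and in 13 of 45 and 6 of 51 vein-like wells (28.9% and 11.8%). In replicate 1 the artery-like interval overlapped both the capillary-like (10.9 to 27.4%) and the vein-like one (16.4 to 44.3%), and in replicate 2 it overlapped the capillary-like (1.38 to 34.7%) and lay above the vein-like one (4.44 to 23.9%). With 1 read as the limit, *Edn1* was found in 19 of 20 and 16 of 21 artery-like wells, 64.9% and 27.8% of capillary-like and 64.4% and 31.4% of vein-like wells, but 75.0% and 10.5% of mural wells had a read too. In replicate 1, 55.0% of the wells with a read of *Edn1* had 1 to 3 reads. After thinning each well to 20000 reads, the artery-like shares were 50.0% and 61.9%, the capillary-like 31.9% and 11.8%, the vein-like 40.0% and 15.7% and the mural 12.5% and 2.63%. The exact intervals above cover the sampling of wells within 1 replicate only. Within artery-like BECs the level was uneven: the highest 10% of wells held 49.2% and 46.7% of the reads, and the highest well reached 3168 and 9821 CPM.

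*Ece1*, the endothelin-converting enzyme (chromosome 4, 137862237 to 137965229, plus strand), was found in most wells of every class. Vein-like wells had 966, 1071, 819 and 1123 CPM on the 4 plates, artery-like wells 604, 883, 1020 and 676 CPM, and capillary-like wells 498, 654, 1945 and 368 CPM. The ranges overlapped, and the high capillary-like plate, 2A, held 6 wells. Vein-like wells had the highest mean in both replicates (988 CPM ± 61.4, SD, n = 2, against 795 ± 6.18 in artery-like and 737 ± 221 in capillary-like wells). The lowest p among its comparisons was for capillary-like BECs, with a log2 fold change of -0.37 (SE 0.311, edgeR adjusted p = 0.969), and from the class sums of replicate 2 alone this value was 0.070. *Ece1* reached 100 CPM in 95.6% and 86.3% of vein-like wells, 80.0% and 66.7% of artery-like wells and 81.9% and 55.6% of capillary-like wells. Mural wells were not devoid of it, at 220 and 267 CPM. The precursor and its protease both reached 100 CPM in 7 of 20 and 10 of 21 artery-like, 15 of 94 and 1 of 18 capillary-like and 13 of 45 and 5 of 51 vein-like wells. Across wells the correlation of their levels was low, as for all 36 pairs of the 9 genes. Pearson's r of log2(CPM + 1) within a replicate ranged from -0.125 to 0.278 (159 and 90 wells that share library preparation and depth). Sparse counts limit r, as 55.0% of replicate 1 wells with a read of *Edn1* held 1 to 3 reads, so a relation was not excluded.

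*Nos3*, the endothelial nitric oxide synthase (chromosome 5, 24364810 to 24384474, plus strand), was present in all 3 classes, with its lowest level in vein-like wells on each of the 4 plates, and was nearly absent from mural wells. Artery-like wells had 214, 193, 362 and 367 CPM on the 4 plates, capillary-like wells 197, 241, 490 and 306 CPM, and vein-like wells 126, 150, 323 and 210 CPM. Every class was higher in replicate 2 than in replicate 1, and the ranges of the classes over plates overlapped. Vein-like BECs had 141 and 276 CPM (209 ± 95.5, SD, n = 2), beside 199 and 366 CPM (282 ± 118) in artery-like and 220 and 367 CPM (294 ± 104) in capillary-like BECs. For the vein-like class the log2 fold change was -0.67 (SE 0.401, edgeR adjusted p = 0.946), where the median of all genes in that comparison was 0.306. The mural wells of the 2 replicates had 16.7 and 0.955 CPM. At least 100 CPM was seen in 6 of 20 and 12 of 21 artery-like, 46 of 94 and 5 of 18 capillary-like and 20 of 45 and 16 of 51 vein-like wells, against 1 of 8 and 0 of 38 mural wells. The order of the classes by this share changed between replicates, and their intervals overlapped in each.

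The level of *Nos3* cannot be separated from that of its neighbours on the other strand, since the strand setting of the counting is not given in the sources used here. *Gm15587* overlaps *Nos3* by 1040 bases of exon and *Atg9b*, an autophagy gene, by 294 bases. They were also the genes whose levels over wells were most like those of *Nos3* among 5294 genes compared, with r of 0.84 and 0.86 for *Gm15587* and 0.70 and 0.64 for *Atg9b* in the 2 replicates. The next gene, *Lbr*, reached 0.27 and 0.26. Reads of *Gm15587* came to 27.2% to 46.9% of those of *Nos3* across classes and replicates. Overlaps of 148 bases with *Gm43621* for *Ptgs1* and 156 bases with *1110018N20Rik* for *Ptgis* raise the same question there. Reads of *Gm43621* came to 5.04% to 10.3% of those of *Ptgs1* where it had reads, while *1110018N20Rik* had 192 reads against 60 of *Ptgis* in capillary-like wells and 50 against 16 in vein-like wells of replicate 1.

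**Figure D2:**
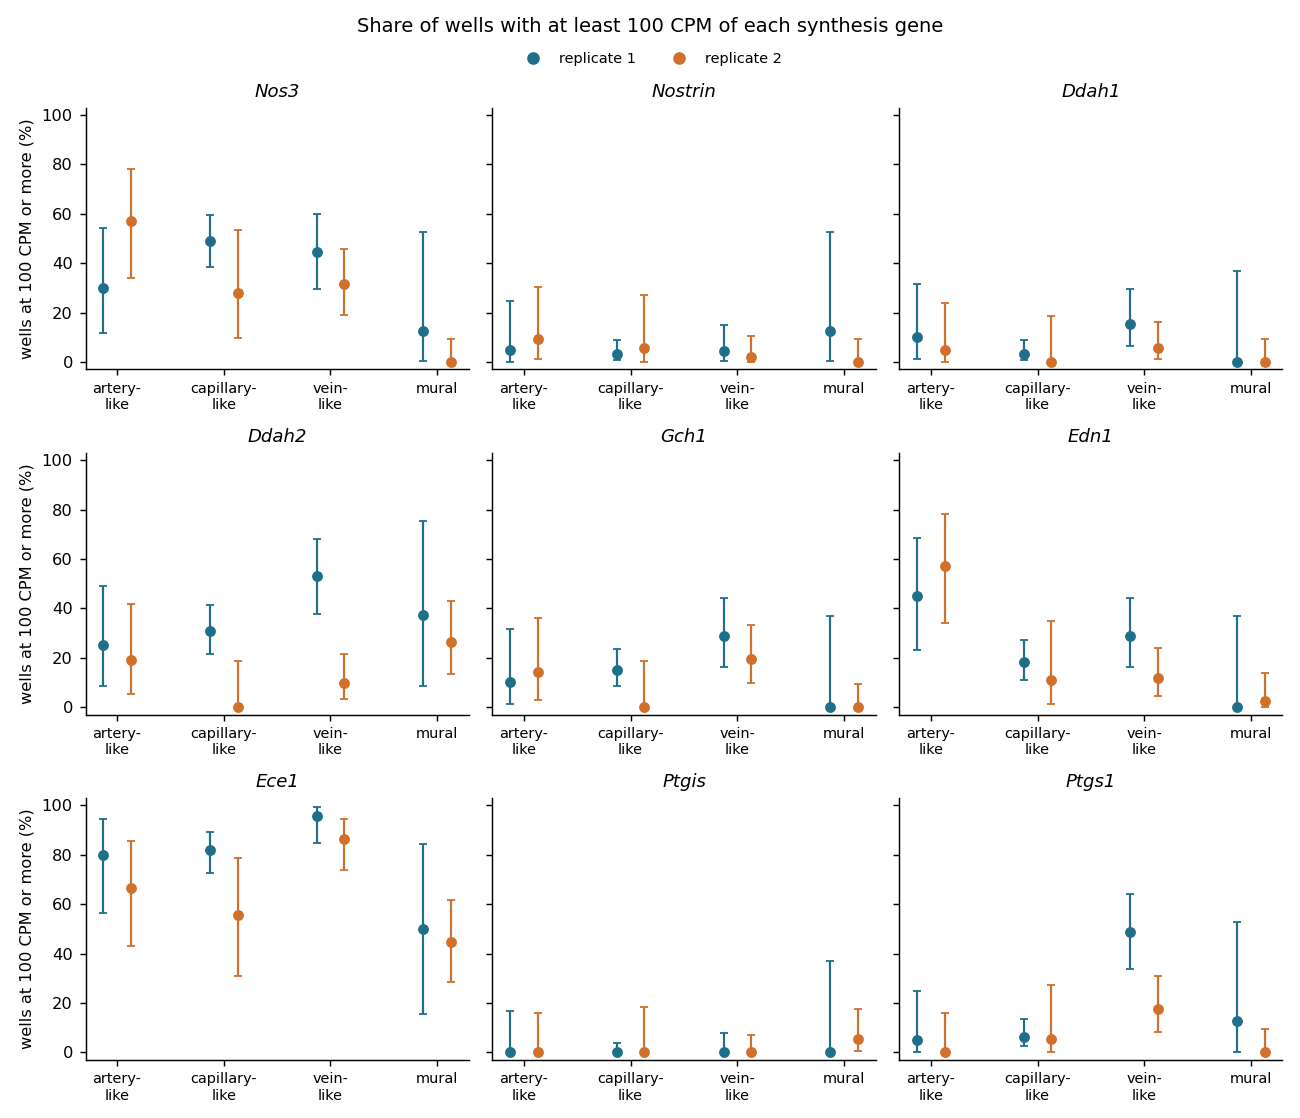
Share of wells with at least 100 CPM (y axis, percent) of each of the 9 genes in artery-like, capillary-like, vein-like and mural wells, for each replicate, with exact 95% binomial intervals. *Edn1* reaches 45.0% and 57.1% of artery-like wells and *Ptgs1* 48.9% and 17.6% of vein-like wells, and *Ptgis* reaches 100 CPM in 0 wells of the 3 classes.

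*Gch1* encodes GTP cyclohydrolase, the first and limiting enzyme of tetrahydrobiopterin synthesis (chromosome 14, 47153895 to 47189413, minus strand). Vein-like wells had 85.7, 156, 117 and 30.6 CPM on the 4 plates, artery-like wells 6.93, 42.1, 76.1 and 115 CPM, and capillary-like wells 49.0, 59.4, 28.6 and 0.801 CPM. Vein-like wells led in replicate 1 (129 CPM) and artery-like wells in replicate 2 (102 CPM, with 81.5 CPM in vein-like wells), and the plates overlapped. Mean levels were 105 ± 33.6 CPM in vein-like, 66.6 ± 49.7 in artery-like and 32.3 ± 31.4 in capillary-like BECs (SD, n = 2). For the vein-like class the log2 fold change was 1.30 (SE 1.01, edgeR adjusted p = 0.968). *Gch1* reached 100 CPM in 28.9% and 19.6% of vein-like, 10.0% and 14.3% of artery-like and 14.9% and 0.0% of capillary-like wells. In mural wells *Gch1* was at 0.701 and 0.445 CPM. At least 100 CPM of both *Nos3* and *Gch1* was seen in 2 of 20 and 2 of 21 artery-like, 7 of 94 and 0 of 18 capillary-like and 6 of 45 and 3 of 51 vein-like wells.

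*Ddah1* and *Ddah2* encode dimethylarginine dimethylaminohydrolases, which break down methylated arginines that inhibit nitric oxide synthases. *Ddah2* (chromosome 17, 35059035 to 35062095, plus strand) had a lower mean in replicate 2 than in replicate 1 in each class. In replicate 1 it was at 115 and 210 CPM on the artery-like, 163 and 156 CPM on the capillary-like and 191 and 213 CPM on the vein-like plates, and in replicate 2 at 262 and 40.0, 14.1 and 0.962, and 71.6 and 4.59 CPM. *Ddah2* reached 100 CPM in 53.3% of vein-like wells of replicate 1 and 9.80% of those of replicate 2. Mural wells had 223 and 119 CPM, so *Ddah2* did not set endothelial wells apart. Its capillary-like log2 fold change was -1.50 (SE 1.06, edgeR adjusted p = 0.969).

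*Ddah1* (chromosome 3, 145758675 to 145894277, plus strand) was found in few wells. Artery-like wells had 1.55, 61.1, 1.16 and 72.1 CPM on the 4 plates, vein-like wells 25.9, 62.7, 0.955 and 90.6 CPM, and capillary-like wells 5.27, 21.4, 0 and 0 CPM. Plates B lay above plates A in both replicates in artery-like and vein-like wells. The capillary-like level was lowest in both replicates, with 13.8 CPM in replicate 1 and no read in 18 wells of replicate 2, which allows up to 16.7% of wells with a read by a limit of 3 counts (exact upper 95% limit 18.5%). Its capillary-like log2 fold change was -4.11 (SE 2.05, edgeR adjusted p = 0.969; DESeq2 adjusted p = 0.0421), and it turned to 1.06 with a limit of 10 CPM and to 0.60 with all 3 BEC genes required. The artery-like value of replicate 2 came almost wholly from 1 well of 1000.45 CPM, as the highest 10% of wells held 99.2% of the reads. *Nostrin*, which traffics the endothelial synthase away from the membrane (chromosome 2, 69135800 to 69189330, plus strand), stayed between 0 and 36.6 CPM on every plate of every class. Its artery-like log2 fold change was 1.08 (SE 1.54, edgeR adjusted p = 0.898), which turned to -3.05 with all 3 BEC genes required and to -0.90 with thinned wells. In replicate 1, 70.6% of the wells with a read had 1 to 3 reads.

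*Ptgs1*, cyclooxygenase-1 (chromosome 2, 36230426 to 36252272, plus strand), was highest in vein-like BECs. Vein-like wells had 253, 385, 71.5 and 187 CPM on the 4 plates, capillary-like wells 43.0, 46.6, 0 and 171 CPM, and artery-like wells 125, 1.18, 0 and 0 CPM. On each plate the vein-like level was above that of both other classes, though the ranges over plates overlapped. By replicate the vein-like level was 335 and 119 CPM (227 ± 153, SD, n = 2), the capillary-like 44.9 and 114 CPM (79.5 ± 48.9) and the artery-like 38.2 and 0 CPM (19.1 ± 27.0). The capillary-like value of replicate 2 came from 1 well of 2012 CPM, with 3 others that had a read, and the artery-like value of replicate 1 from 1 well of 748 CPM. At least 100 CPM was present in 22 of 45 and 9 of 51 vein-like wells (48.9% and 17.6%, exact 95% intervals 33.7 to 64.2% and 8.40 to 30.9%), in 6 of 94 and 1 of 18 capillary-like wells (6.38% and 5.56%), in 1 of 20 and 0 of 21 artery-like wells and in 1 of 8 and 0 of 38 mural wells. In replicate 1 the vein-like interval lay above the capillary-like one (2.38 to 13.4%) and the artery-like one (0.127 to 24.9%), and in replicate 2 it overlapped both the capillary-like (0.141 to 27.3%) and the artery-like one (0 to 16.1%). After thinning to 20000 reads, a read was left in 60.0% and 23.5% of vein-like, 10.6% and 11.8% of capillary-like and 5.0% and 0.0% of artery-like wells. The lowest p among its comparisons was for artery-like BECs, at a log2 fold change of -3.70 (SE 2.27, edgeR adjusted p = 0.745), and that of vein-like BECs was 1.99 (SE 1.53, adjusted p = 0.968). The summed level of 56 dissociation-induced genes was higher in vein-like wells (40804 and 36013 CPM) than in capillary-like wells (23280 and 14234 CPM), with 25041 and 36868 CPM in artery-like wells. Its part in the levels of *Ptgs1* and *Gch1* was not tested.

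*Ptgis*, prostacyclin synthase (chromosome 2, 167191805 to 167240604, minus strand), was barely detected. The mean was 0.650 ± 0.919 CPM in artery-like, 2.08 ± 2.95 in capillary-like and 1.70 ± 1.47 in vein-like wells (SD, n = 2), and no well of the 3 classes reached 100 CPM. In replicate 2 it had a read in 4 of 51 vein-like wells and in no artery-like or capillary-like well, which allows up to 14.3% and 16.7% of these wells with a read by a limit of 3 counts (exact upper 95% limits 16.1% and 18.5%). A read of both *Ptgs1* and *Ptgis* was found in 4 of 94 capillary-like wells of replicate 1, in 2 of 45 and 2 of 51 vein-like wells and in no artery-like well. Its artery-like log2 fold change was -1.62 (SE 1.86, edgeR adjusted p = 0.859).

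**Figure D3:**
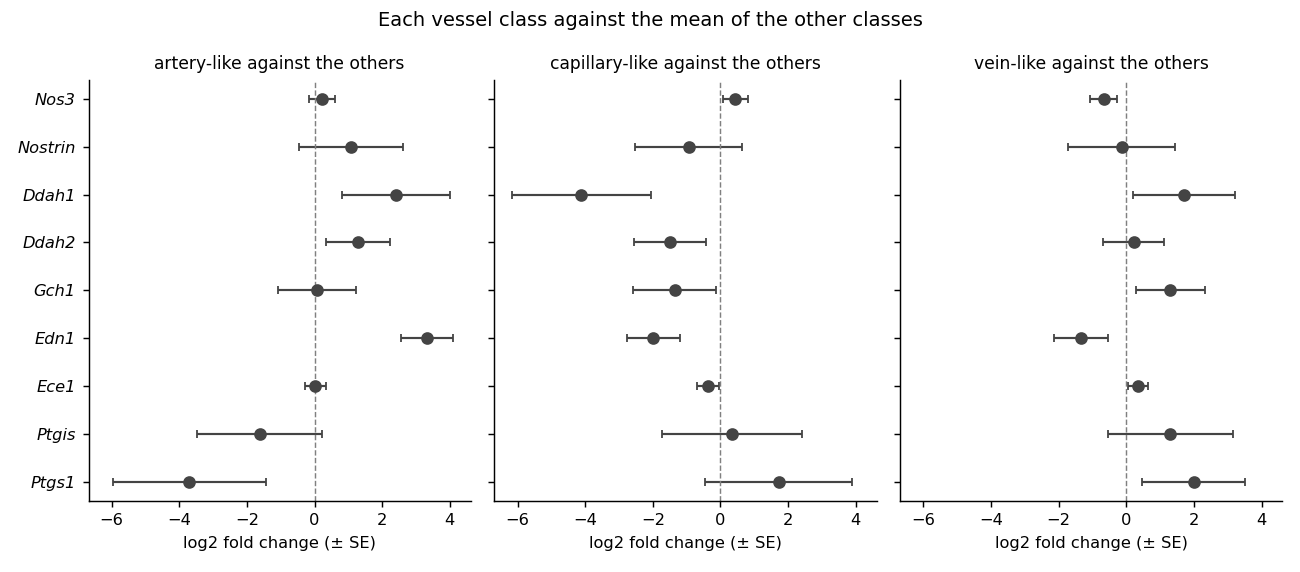
Log2 fold change of the 9 genes in each class against the mean of the other classes (x axis, edgeR on counts summed per replicate and class, bars ± SE). *Edn1* in artery-like BECs is at 3.32 with an SE of 0.776, *Nos3* and *Ece1* lie within 0.67 of 0 in all comparisons, and SEs reach 2.27, for *Ptgs1* in artery-like BECs.

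Of 48 further genes of the 3 pathways, 31 had enough counts to test and 0 were called by edgeR. DESeq2 called 3 for any difference (1.7% of all genes), 5 in artery-like (5.03%), 1 in capillary-like (1.88%) and 4 in vein-like BECs (2.64%). For nitric oxide, 19 of 23 were tested, and at an unadjusted p under 0.05 there were 3 higher in artery-like (2.38% of all genes tested were), 2 higher in capillary-like (2.29%) and 1 lower in vein-like BECs (1.28%). For endothelin, 3 of 6 were tested, with 1 higher in artery-like and 1 lower in vein-like BECs. For prostanoids, 9 of 19 were tested, with 1 higher and 1 lower in artery-like (3.09% of all genes were lower) and 1 higher and 2 lower in vein-like BECs (4.14% of all genes were higher). *Cav1*, *Calm2*, *Ednrb*, *Ece2*, *Ednra*, *Ptges3*, *Abcc4* and *Slco2a1* are described because they were among the highest per kilobase of their group, and *Nos2*, *Asl*, *Tbxa2r* and *Ptger4*, which are behind these counts, were named after their values were seen.

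*Cav1*, the caveolar coat protein that binds and restrains the endothelial synthase, lay lower in vein-like BECs on each plate, though it was not called. It was at 2592, 2222, 1593 and 1354 CPM in vein-like wells, 5790, 5514, 3483 and 4429 CPM in artery-like wells and 5637, 6004, 3032 and 4456 CPM in capillary-like wells. The vein-like plates lay below those of both other classes, which held for 0.102% of all genes tested. Mural wells had *Cav1* at 2191 and 1510 CPM, close to the vein-like level. Its vein-like log2 fold change was -1.35 (SE 0.156, edgeR adjusted p = 0.0974), between -1.45 and -0.871 in 14 alternatives with an adjusted p from 4.11e-08 to 0.934, and 5 of the 14 called it. These 5 include the fits with plates as sums, on all plates and without replicate 2. There, plates of 1 replicate stood as samples, so p covers the spread between plates only. *Calm2*, whose product binds the synthase, was at 522 ± 26.7 CPM in artery-like, 276 ± 92.6 CPM in capillary-like and 419 ± 121 CPM in vein-like wells (SD, n = 2). *Nos2*, the inducible synthase, was at 63.3, 105, 14.7 and 96.3 CPM in capillary-like wells and at 0 to 47.1 CPM on plates of the other classes, with a capillary-like log2 fold change of 4.28 (SE 1.66, edgeR adjusted p = 0.969).

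*Asl*, argininosuccinate lyase, which makes arginine, had 110.5 and 86.4 CPM in artery-like, 39.3 and 0.794 CPM in capillary-like and 86.1 and 1.70 CPM in vein-like wells. The artery-like level was highest on plates B only, at 155 and 130 CPM. On plates A it was 5.76 and 0 CPM, below capillary-like (37.5 and 1.76 CPM) and vein-like wells (139 and 0.717 CPM). Its artery-like log2 fold change was 4.92 (SE 1.75, edgeR adjusted p = 0.745).

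*Ednrb*, the endothelin receptor that endothelium itself carries, had 297 and 97.0 CPM in artery-like wells, 209 and 0.777 CPM in capillary-like wells and 4.03 and 0.150 CPM in vein-like wells of the 2 replicates. On plate 1A the artery-like level (79.5 CPM) was below the capillary-like one (161 CPM). In replicate 2, artery-like wells with a read of *Ednrb* numbered 3 on plate A and 1 on plate B. Mural wells had *Ednrb* at 124 and 17.7 CPM. Its artery-like log2 fold change was 6.29 (SE 1.44, edgeR adjusted p = 0.745). *Ednra*, the constrictor receptor of smooth muscle, was at 656 and 911 CPM in mural wells and at 3.94 to 46.6 CPM in the classes. *Ece2*, a related protease, stayed at 0.865 to 37.1 CPM in the classes.

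*Slco2a1*, the prostaglandin transporter, had its highest level in vein-like BECs. Vein-like wells had 434, 536, 546 and 461 CPM on the 4 plates, capillary-like wells 2.99, 44.4, 3.52 and 42.2 CPM, and artery-like wells 0, 3.78, 2.01 and 1.24 CPM. All vein-like plates lay above those of both other classes, which held for 1.49% of genes tested. *Slco2a1* was among the highest per kilobase of its group through its vein-like level, at 37.2 CPM per kb. It had 2.00 CPM per kb in capillary-like and 0.153 in artery-like wells, so its choice was not independent of its vein-like excess. Mural wells had 122 and 3.07 CPM. The vein-like log2 fold change was 5.90 (SE 0.601) with an edgeR adjusted p of 0.0623, and 0.0207 without the replicate block. It ranged from 3.34 to 7.32 in 14 alternatives with an adjusted p from 4.87e-08 to 0.934, and 7 of the 14 called it, among them the fit with plates as sums. *Slco2a1* was also among the 3 genes whose levels over wells were most like those of *Ece1* (r of 0.28 and 0.28), after *Mettl23* (0.29 and 0.31) and *Ctsb* (0.29 and 0.33). *Tbxa2r*, the thromboxane receptor, was at 81.1 and 28.8 CPM in artery-like, 27.4 and 4.01 CPM in capillary-like and 0.837 and 0.0834 CPM in vein-like wells. Its artery-like reads came from 2 wells of replicate 1 and 1 well of replicate 2, all on plates B. *Ptger4*, a prostaglandin E2 receptor, had 113 and 2.86 CPM in artery-like, 74.9 and 126 CPM in capillary-like and 6.09 and 2.00 CPM in vein-like wells, with a vein-like log2 fold change of -4.23 (SE 1.54, edgeR adjusted p = 0.859). Its capillary-like value of replicate 2 came from 1 well of 2259 CPM, with 1 other that had a read. *Ptges3* (124 ± 11.2, 124 ± 90.2 and 153 ± 23.9 CPM in artery-, capillary- and vein-like wells) and the exporter *Abcc4* (75.9 ± 70.7, 146 ± 59.1 and 95.1 ± 61.2 CPM) overlapped between classes. *Ptgs2*, the inducible cyclooxygenase, and *Pla2g4a*, the phospholipase that frees arachidonic acid, had 0 reads in the 249 named wells, as had *Edn2*, *Ptger3* and *Ptgdr*.

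**Figure D4:**
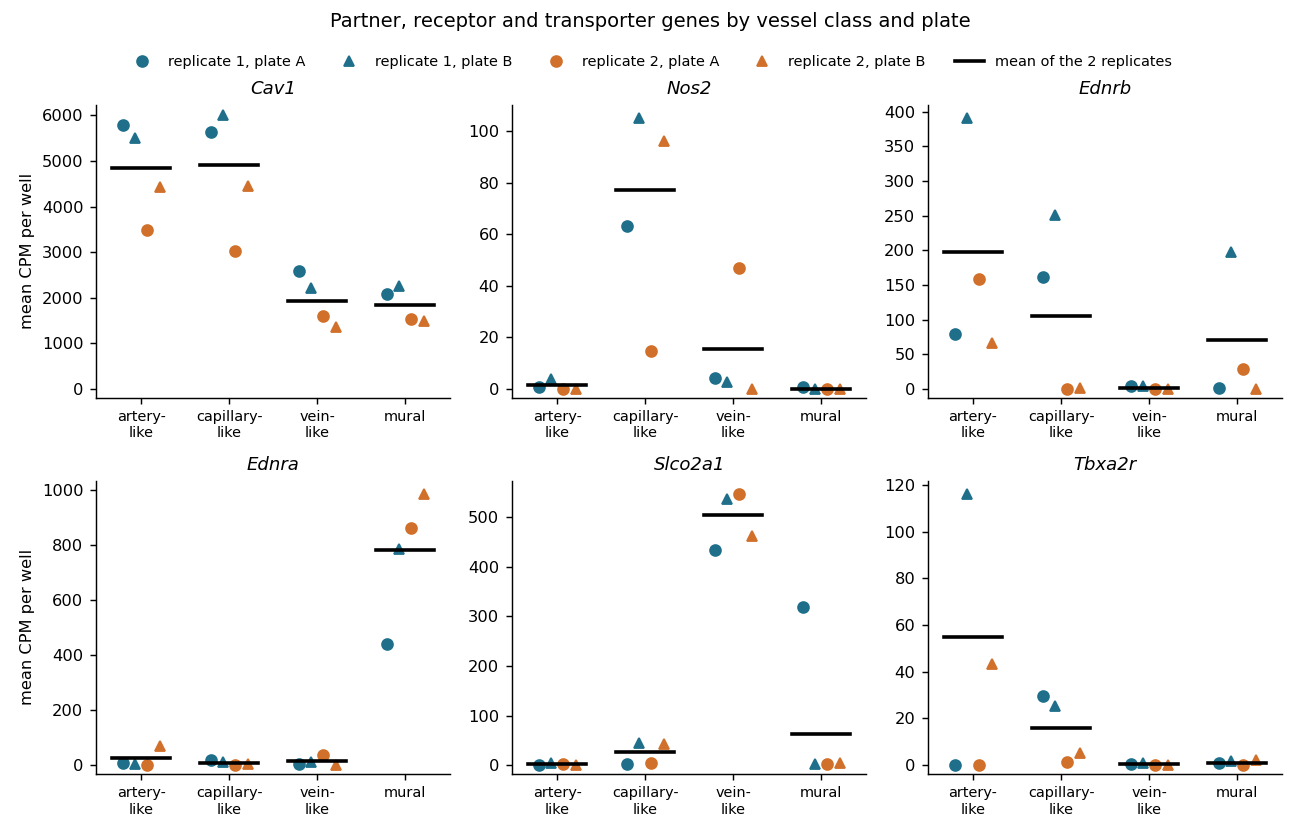
Mean CPM per well (linear y axis, a scale for each panel) of *Cav1*, *Nos2*, *Ednrb*, *Ednra*, *Slco2a1* and *Tbxa2r* in artery-like, capillary-like, vein-like and mural wells, with 1 point per plate and a bar at the mean of the 2 replicates. The 4 vein-like plates of *Slco2a1* sit between 434 and 546 CPM, above all artery-like and capillary-like plates, and those of *Cav1* between 1354 and 2592 CPM, below them.

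For the remaining members with a read in at least 20% of named wells of both replicates, the genes most alike over wells were *Frmd4b*, *Bsg* and *Icam2* for *Edn1* (lower r of the 2 replicates 0.29, 0.22 and 0.21), *Gadd45b*, *Spag7* and *Gem* for *Gch1* (0.23, 0.22 and 0.22), *Trp53i13*, *Ret* and *Edc3* for *Ddah2* (0.24, 0.23 and 0.23) and *Mmp2*, *Slco2a1* and *Prelp* for *Ptgs1* (0.37, 0.37 and 0.36). The wells share libraries and depth.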

How the data were processed

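Sorted BECs were sequenced with Smart-seq2 in single 50-bp reads without molecular identifiers. Intervals for shares are binomial over the wells of 1 replicate, and do not cover differences between replicates or animals. The authors aligned reads to mm10 with TopHat2 2.1.1, removed duplicates with SAMtools 0.1.18 and deposited raw read counts per gene and well made with Subread 1.4.6-p5. The annotation release and strand setting are not given in the sources used here. ERCC spike-in rows (0.971% of counts) were left out.

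The 9 genes, gene lists and tests were chosen with earlier results of these data known. Wells had to hold 600 counts or more, 500 to 8000 genes and reads from 2 or more of the genes *Kdr*, *Cdh5* and *Pecam1*, while *Kcnj8*, *Pdgfrb*, *Ptprc*, *Prox1* and *Lyve1* had to stay below 100 CPM. No doublet caller was run. Wells were clustered (1000 variable genes, scaled within replicate, 15 principal components, 15 neighbours, leidenalg 0.10.2) without the 9 genes and their pathway genes, and clusters were named from fixed markers, so class names were rebuilt here and not taken from the study.

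Counts summed per replicate and class were tested with edgeR 4.0.16 (R 4.3.3) with the replicate as a block, on genes that reached 10 counts in 2 or more sums. The block follows the design, as a replicate supplies all 3 classes, and deviations from class means correlated at 0.0904, 0.0955 and 0.113 between classes. Nothing says that replicates came from separate animals, so p-values measure the spread between these samples. The tests were checked on simulated counts, where edgeR recovered 99% of 200 genes changed 4-fold among 13354 at a dispersion of 0.05. For each of the 9 genes, the comparison with the lowest unadjusted p is the one given. Of the pathway lists, none was called for any difference by edgeR with the settings above, and the 3 genes with the highest level per kilobase in each group are named, apart from 1 that is not reported here. *Nos2*, *Asl*, *Tbxa2r* and *Ptger4* were named after their values were seen, as genes with an unadjusted p under 0.05 in a comparison. Alternatives used DESeq2 1.42.0, limma 3.58.1, other limits on non-BEC genes, other class definitions, plates as sums, no block, thinned wells and 1 replicate at a time (tests with its plates as sums, log2 fold changes of the 9 genes from its class sums). With plates as sums, plates of 1 replicate stood as samples, so those p-values measure the spread between plates.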

Additional observations from a re-analysis of the deposited data

Results flagged for a closer look

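In 27 groups of 4 plates (9 genes in 3 classes), 3 held a plate far from the others by Dixon's criterion. The chance rate of this criterion, about 1 in 20, is for independent values with a normal distribution. Plates of 1 replicate are not independent, and means of sparsely read genes can rest on 1 well, so that rate does not apply here. Whether 3 of 27 is more than chance gives was not tested. *Nostrin* in vein-like wells was at 26.1 CPM on plate A of replicate 1, while the nearest plate had 8.27 CPM. *Ptgis* in vein-like wells was at 3.86 CPM on plate B of replicate 1, against 0.884 CPM on the nearest plate. *Ptgs1* in artery-like wells was at 125 CPM on plate A of replicate 1, against 1.18 CPM on the nearest, and this value came from 1 well of 748 CPM.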

How the results depend on the processing

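Among all genes, 2 were called for any difference between classes, 1 in artery-like, 0 in capillary-like and 4 in vein-like BECs, and these counts moved with most settings. In that order, they were 233, 689, 257 and 361 with DESeq2, 100, 58, 28 and 76 without the low-count filter, 25, 15, 4 and 40 with plates as sums, and 59, 36, 10 and 57 with wells thinned to 20000 reads. Without the replicate block, 1 gene was called for any difference, 2 in artery-like and 8 in vein-like BECs, and *Slco2a1* was called while *Edn1* and the other 8 genes were not. Other counts for any difference were 1 with limma, 0 with a limit of 300 CPM, 7 with all 3 BEC genes required and 1 with marker scores. Those for artery-like BECs were 2 with DESeq2 size factors, 5 with limma, 3 with a limit of 10 CPM, and 0 each with 300 CPM, all 3 BEC genes and marker scores. Those for vein-like BECs were 10 with 300 CPM, 11 with all 3 BEC genes, 2 at the next resolution and 1 with marker scores. Leaving out 1 replicate, with plates as sums, gave 17 to 19 genes for any difference, 11 to 13 in artery-like, 0 to 13 in capillary-like and 9 to 20 in vein-like BECs.

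Of the 9 genes, 1 (*Edn1*) was called for any difference without the filter and with thinned wells, and 1 (*Edn1*) in artery-like BECs with DESeq2, without the filter, with thinned wells and without replicate 1 (plates as sums), where without replicate 2 it was 0. In capillary-like BECs 1 (*Ddah1*) was called with DESeq2. Of the 43 pathway genes tested without the filter, 3 were called for any difference, 3 in artery-like, 1 in capillary-like and 3 in vein-like BECs. The adjusted p of *Edn1* in artery-like BECs was 0.0117 with DESeq2, 0.00201 without the filter, 0.00945 with thinned wells, and 0.574 without the block. Log2 fold changes that turned sign were those of *Edn1* in artery-like BECs (-0.21 with a limit of 10 CPM), *Nostrin* in artery-like BECs (-3.05 with all 3 BEC genes and -0.90 with thinned wells), *Ptgis* in artery-like BECs (2.37 with all 3 BEC genes), *Ddah1* in capillary-like BECs (1.06 with 10 CPM and 0.60 with all 3 BEC genes), *Ddah2* in capillary-like BECs (0.063 with 300 CPM) and *Ece1* in capillary-like BECs (0.71 with 10 CPM, -0.86 to 0.070 without 1 replicate, and 0.35 when replicate 1 was left out and the plates of replicate 2 were the sums, an alternative chosen after seeing the data). With plates as sums, the artery-like value of *Edn1* was 5.68 without replicate 1 and 0.63 without replicate 2. The cause was not tested. Of the wells with a read, those with 1 to 3 reads made up 66.7% and 100.0% for *Ptgis*, 70.6% and 10.0% for *Nostrin* and 45.5% and 66.7% for *Ddah1* in the 2 replicates.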
